A study of Mus musculus with 50 samples.

Results

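The collagen genes of mouse gastrocnemius, the large calf muscle, were followed over 6 ages. Every gene symbol made of Col, a type number, the letter a and a chain number was taken from the gene tables, which gave 43 genes of 23880. Of these, 26 reached at least 1 TPM (transcripts scaled to a fixed library total, a level corrected for transcript length) in at least 8 of the 50 mice and are described here by class, and 15 of the 26 reached it in all 50 mice. The other 17 were under that level: Col2a1, Col27a1, Col4a3, Col4a4, Col4a6, Col6a4, Col6a5, Col9a1, Col9a2, Col9a3, Col19a1, Col10a1, Col13a1, Col17a1, Col25a1, Col26a1 and Col28a1. The symbol rule thus covers fibrillar (9 of 11 genes described), basement membrane (3 of 6), multiplexin (2 of 2), microfibril (4 of 6), fibril-associated (5 of 9), short-chain network (2 of 3), anchoring fibril (1 of 1) and other collagens (0 of 2). None of the 3 transmembrane collagens in the tables, Col13a1, Col17a1 and Col25a1, met the level, so that class has no description.

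Polyadenylated RNA was sequenced from the gastrocnemius of wild type male C57BL/6JRj mice aged 8, 18, 22, 24 (n = 8 mice each), 26 and 28 months (n = 9 each), a design that asks how muscle expression shifts as mice lose muscle mass with age. The mice were housed alone and ate the purified AIN93M diet. The diet schedule differed with age: the 8- and 18-month mice had the diet for at least 2 months before the end point, whereas the mice of 22 months and older ate it from 18 months of age or shortly after, so diet duration and age cannot be told apart. Mice with overt illness or tumors had been left out by the study, and each library is 1 animal. The libraries held 13607229 to 21267375 estimated read counts (median 16521368.5), and 12586 genes passed the low-count limit and were tested. In whole muscle, fewer cells of a type and less RNA per cell cannot be told apart.

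Collagens are secreted triple-helical proteins that form the scaffold of the extracellular matrix. In skeletal muscle, fibrillar collagens of types I, III and V build the connective tissue sheaths around fibres and bundles, type IV forms the sheet-like basement membrane that wraps each fibre and capillary, and type VI forms beaded microfibrils that link the sheets to the fibrils. Interstitial fibroblasts make most of the fibrillar and type VI chains, whereas endothelial cells, mural cells and fibres also make type IV. Procollagen chains are hydroxylated and glycosylated in the endoplasmic reticulum, folded with the chaperone HSP47, trimmed outside the cell and crosslinked by lysyl oxidases.

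The promoters of 6 members are shown because they set genes that fell with age (Col3a1, Col5a1, Col6a2 and Col15a1) beside genes that did not pass the test (Col7a1 and Col8a1). Each line holds the 250 bases before a RefSeq gene start in build GRCm38.p6, 5′ to 3′ on the strand of the gene. Capitals mark the CCAAT box, the TATAAA box and the GGGCGG box or their reverse complements. The windows lie at chr1:45311288-45311537 (plus strand), chr2:27886175-27886424 (plus strand), chr10:76623631-76623880 (minus strand), chr4:47207762-47208011 (plus strand), chr9:108953336-108953585 (plus strand) and chr16:57754738-57754987 (minus strand), and no annotated exon lies in any of the 6.
Col3a1: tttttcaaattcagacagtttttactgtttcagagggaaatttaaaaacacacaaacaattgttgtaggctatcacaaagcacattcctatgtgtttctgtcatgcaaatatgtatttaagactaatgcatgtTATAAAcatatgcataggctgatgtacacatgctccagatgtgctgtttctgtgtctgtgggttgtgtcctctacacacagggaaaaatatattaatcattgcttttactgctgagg
Col5a1: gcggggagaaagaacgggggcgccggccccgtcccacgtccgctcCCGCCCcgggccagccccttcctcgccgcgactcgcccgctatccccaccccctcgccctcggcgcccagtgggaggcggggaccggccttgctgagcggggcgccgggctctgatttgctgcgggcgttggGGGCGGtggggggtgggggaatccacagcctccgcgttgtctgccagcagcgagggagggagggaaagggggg
Col6a2: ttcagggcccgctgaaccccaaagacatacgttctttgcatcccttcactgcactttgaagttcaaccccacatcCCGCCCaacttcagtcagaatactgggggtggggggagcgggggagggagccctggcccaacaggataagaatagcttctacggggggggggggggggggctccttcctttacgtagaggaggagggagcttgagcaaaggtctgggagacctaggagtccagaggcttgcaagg
Col15a1: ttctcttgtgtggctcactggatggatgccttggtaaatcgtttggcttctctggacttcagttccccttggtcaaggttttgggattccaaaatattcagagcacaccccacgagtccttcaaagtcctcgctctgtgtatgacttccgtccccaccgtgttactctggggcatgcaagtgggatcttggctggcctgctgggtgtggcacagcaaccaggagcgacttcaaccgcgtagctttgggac
Col7a1: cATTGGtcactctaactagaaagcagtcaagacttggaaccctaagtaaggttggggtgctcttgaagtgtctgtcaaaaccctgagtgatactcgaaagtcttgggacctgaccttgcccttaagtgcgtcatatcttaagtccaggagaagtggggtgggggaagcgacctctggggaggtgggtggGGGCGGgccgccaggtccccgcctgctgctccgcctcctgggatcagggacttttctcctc
Col8a1: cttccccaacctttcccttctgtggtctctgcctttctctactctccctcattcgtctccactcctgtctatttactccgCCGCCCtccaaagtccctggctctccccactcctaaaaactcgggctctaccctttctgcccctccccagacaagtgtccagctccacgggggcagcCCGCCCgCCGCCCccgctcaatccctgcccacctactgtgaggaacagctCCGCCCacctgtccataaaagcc

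The 6 windows differed widely in base composition and in the letters searched. The Col3a1 window had 35.2% G and C and a TATAAA whose first base lies 117 bases before the start. The Col5a1 window had 76.4% G and C and 2 GGGCGG matches, compared with a median of 52.4% G and C over all 32841 promoters. No match lay in the Col15a1 window (53.6% G and C), and the Col6a2 window shown held 1 GGGCGG. Another RefSeq start of Col6a2, whose window holds an annotated exon and is not shown, had 3 GGGCGG and 64.4% G and C. The Col7a1 window held 1 CCAAT and 1 GGGCGG, and the Col8a1 window held 4 GGGCGG. A promoter was at hand for 21 of the 26 genes. CCAAT was found in 9 of the 21 genes (33.9% of all promoters), TATAAA in 2 (12.4%) and GGGCGG in 14 (32.7%), on either strand and with overlapping matches counted. The collagen counts are per gene over 23 windows, where a match in any window of a gene counts. The percentages are per single promoter, so the units differ. These matches are a description of letters. Col4a1 and Col4a2 on chromosome 8 start head to head and overlap by their first 22 bases on opposite strands, Col3a1 and Col5a2 on chromosome 1 end with 24614 bases between them, and Col6a1 and Col6a2 follow each other on chromosome 10 with 85161 bases between them.

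By summed level, collagen RNA was lower in older muscle, and the classes did not shrink alike. The sum over all 43 collagen genes ranged from 308 to 655 TPM at 8 months (median 486 TPM) and from 146 to 303 TPM at 28 months (median 199.7 TPM), with medians of 429, 339.6, 290.1 and 225 TPM at 18, 22, 24 and 26 months. All 9 mice of 28 months lay below the lowest mouse of 8 months. The fibrillar sum had a median of 258 TPM at 8 months and 54.5 TPM at 28 months. The type IV sum had medians of 92.3 and 60.6 TPM, and the ranges of both ages overlapped (55.2 to 144 and 53.8 to 140.0 TPM). These sums were not tested.

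Mice that were low or high for 1 collagen were often low or high for most of them. Mouse 3 of the 8-month group was the lowest of its age for 23 of the 26 genes and mouse 8 the highest for 18. In the same way, mouse 2 of 18 months was lowest for 21 genes, mouse 2 of 24 months highest for 22 and mouse 8 of 24 months lowest for 20. Mouse 1 of 26 months and mouse 2 of 28 months were each lowest for 17 genes. How often these mice were lowest or highest over all genes was not counted. Whether the pattern is particular to collagen genes was thus not tested. Leaving out any single mouse of 8 or 28 months changed the number of genes past the threshold between those ages from 16 to between 14 and 17. In each comparison below, edgeR's quasi-likelihood test on counts was used with Benjamini-Hochberg adjustment (false discovery rate, FDR) over all 12586 genes, and a gene passed at an FDR under 0.01.

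**Figure D1:**
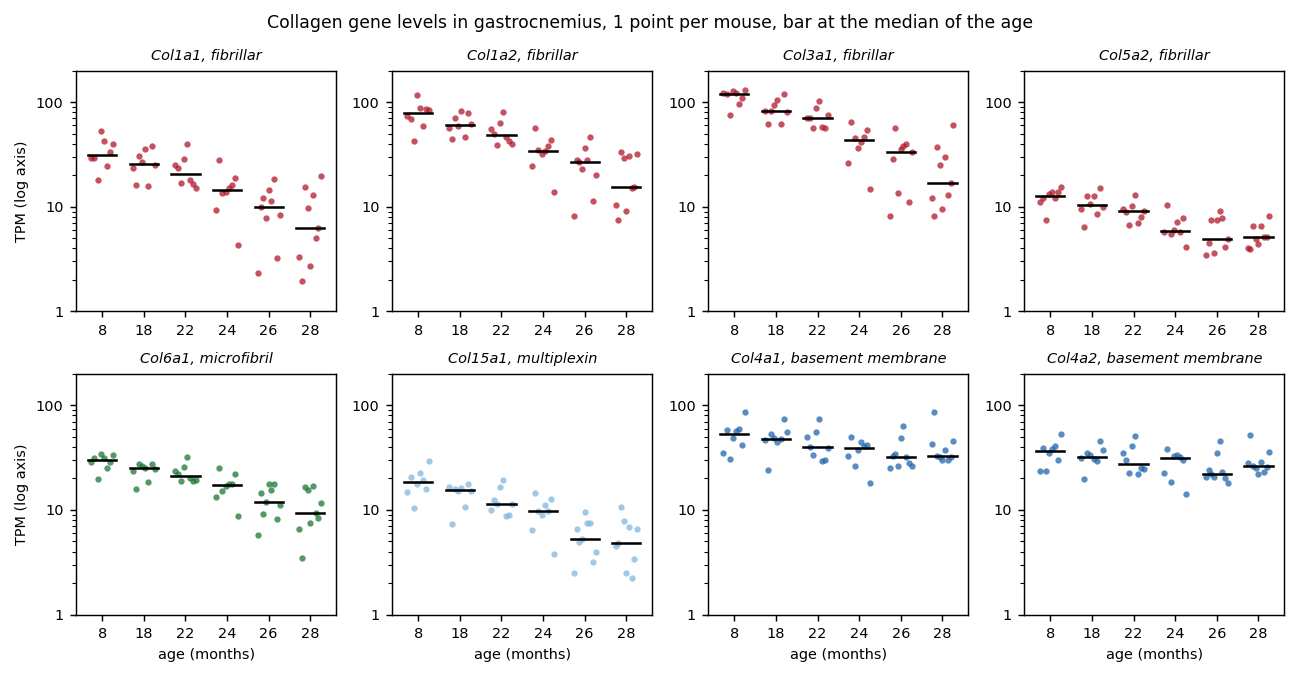
TPM of 8 collagen genes (log axis) in each of the 50 mice against age in months, with a bar at the median of each age. Col1a2, Col3a1 and Col6a1 at 28 months lie below every 8-month mouse, Col1a1, Col5a2 and Col15a1 overlap by a narrow margin in TPM, and Col4a1 and Col4a2 overlap over most of their range.

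Type III collagen, a homotrimer of the Col3a1 chain in the fine fibrils of the endomysium, had the largest change of the 26 genes between 8 and 28 months. Col3a1 (chr1:45311538-45349706, plus strand) was at 75.2 TPM in the lowest, 120.0 TPM in the median and 130.3 TPM in the highest mouse of 8 months, and at 8.09, 16.9 and 60.1 TPM at 28 months. Every mouse of 28 months lay below every mouse of 8 months. The medians between were 82.3, 70.3, 43.5 and 33.1 TPM at 18, 22, 24 and 26 months. Its log2 fold change was -1.53 ± 0.31 (SE) at 24 months (FDR 0.00245), -1.90 ± 0.30 at 26 months (FDR 1.31e-05) and -2.28 ± 0.30 at 28 months (FDR 1.32e-07), the last being 4.87-fold lower. Relative to the mean, the spread of Col3a1 between mice of 1 age was wider at 28 months. Its coefficient of variation was 16.6% at 8 months and 71.8% at 28 months. The standard deviation itself was 18.7 TPM at 8 months and 16.9 TPM at 28 months.

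Type I collagen, the main tensile fibril, is assembled from more alpha 1 than alpha 2 chains, encoded by Col1a1 and Col1a2. Col1a1 had a lowest, median and highest level of 17.8, 31.2 and 53.5 TPM at 8 months and of 1.94, 6.22 and 19.6 TPM at 28 months. Col1a2 had 42.8, 79.2 and 116 TPM at 8 months and 7.46, 15.3 and 33.3 TPM at 28 months. The TPM ranges of Col1a1 overlapped narrowly. In CPM (counts scaled by library size and TMM factors, not by transcript length) neither gene overlapped between the ages. Col1a1 fell by 2.08 ± 0.33 (SE) on the log2 scale (4.22-fold, FDR 3.12e-06) and Col1a2 fell by 1.995 ± 0.27 (3.99-fold, FDR 1.38e-07). Median levels at 18, 22, 24 and 26 months were 25.8, 20.8, 14.5 and 10.004 TPM for Col1a1 and 60.5, 48.1, 34.3 and 26.7 TPM for Col1a2.

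Type V collagen chains are a minor part of the type I fibril, where they set how thick it becomes, and all 3 of their genes fell. Col5a1 ranged from 3.47 to 8.71 TPM at 8 months (median 6.96 TPM) and from 0.748 to 4.17 TPM at 28 months (median 2.22 TPM). Col5a2 ranged from 7.54 to 15.3 TPM (median 12.7 TPM) and from 3.91 to 8.10 TPM (median 5.08 TPM), and Col5a3 from 4.60 to 13.4 TPM (median 7.72 TPM) and from 2.01 to 5.26 TPM (median 3.04 TPM). The TPM ranges of all 3 genes overlapped, but in CPM all 9 old mice lay under the young range for Col5a2 and Col5a3 and 7 did for Col5a1. The log2 fold changes were -1.44 ± 0.20 (SE) for Col5a1 (FDR 2.50e-07), -1.26 ± 0.15 for Col5a2 (FDR 3.89e-08) and -1.33 ± 0.19 for Col5a3 (FDR 3.72e-07). At 18, 22, 24 and 26 months the medians were 5.67, 4.50, 3.88 and 2.99 TPM for Col5a1, 10.3, 9.01, 5.88 and 4.91 TPM for Col5a2, and 6.62, 6.12, 4.88 and 3.05 TPM for Col5a3.

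Of the remaining fibrillar genes, Col11a1 and Col24a1 were near the level limit. Col11a1, a type XI chain found in cartilage and tendon fibrils, had a lowest, median and highest level of 0.775, 1.36 and 2.57 TPM at 8 months and 0.291, 0.524 and 1.26 TPM at 28 months, and fell by 1.16 ± 0.28 (SE) on the log2 scale (FDR 0.000507). Col24a1, a minor fibrillar chain, had 0.646, 0.877 and 2.60 TPM at 8 months and 0.304, 0.549 and 1.12 TPM at 28 months, and fell by 0.98 ± 0.26 (FDR 0.00146). The ages overlapped for both genes. Median Col11a1 levels were 1.13, 1.04, 0.909 and 0.605 TPM at 18, 22, 24 and 26 months, and those of Col24a1 were 0.902, 0.989, 1.41 and 0.846 TPM. Without mouse 8 of 8 months, the highest of its age, Col24a1 no longer passed (log2 fold change -0.72, FDR 0.0129). Col11a2, a further type XI chain, reached 1 TPM in 49 mice, with medians of 4.43 TPM at 8 months and 3.13 TPM at 28 months. Its log2 fold change was -0.51 ± 0.24 and did not pass (FDR 0.0670).

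Of the 9 fibrillar genes, 8 were lower at 28 months and none was higher, where 18.7% of all genes tested were called lower and 21.0% higher. Their median log2 fold change was -1.33, beside 0.01 over all genes. Over all 26 genes the count was 16 lower (61.5%) and 0 higher, with a median of -0.97. The CPM ranges at 28 and 8 months did not overlap for 8 of the 26 genes, Col1a1, Col1a2, Col3a1, Col5a2, Col5a3, Col6a1, Col6a2 and Col15a1, each lower at 28 months. Over all genes tested, 2.24% did not overlap and were lower and 2.46% did not overlap and were higher. The counts over the 26 carry a limit of the rule: Col8a2 (39 mice), Col4a5 (30), Col11a1 (20), Col24a1 (17), Col12a1 (13) and Col6a6 (9) reached 1 TPM in only some mice. For Col4a5 these were 7 of 8 mice at 8 months and 1 of 9 at 28 months, so a gene of this kind could enter through the age at which it is high.

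**Figure D2:**
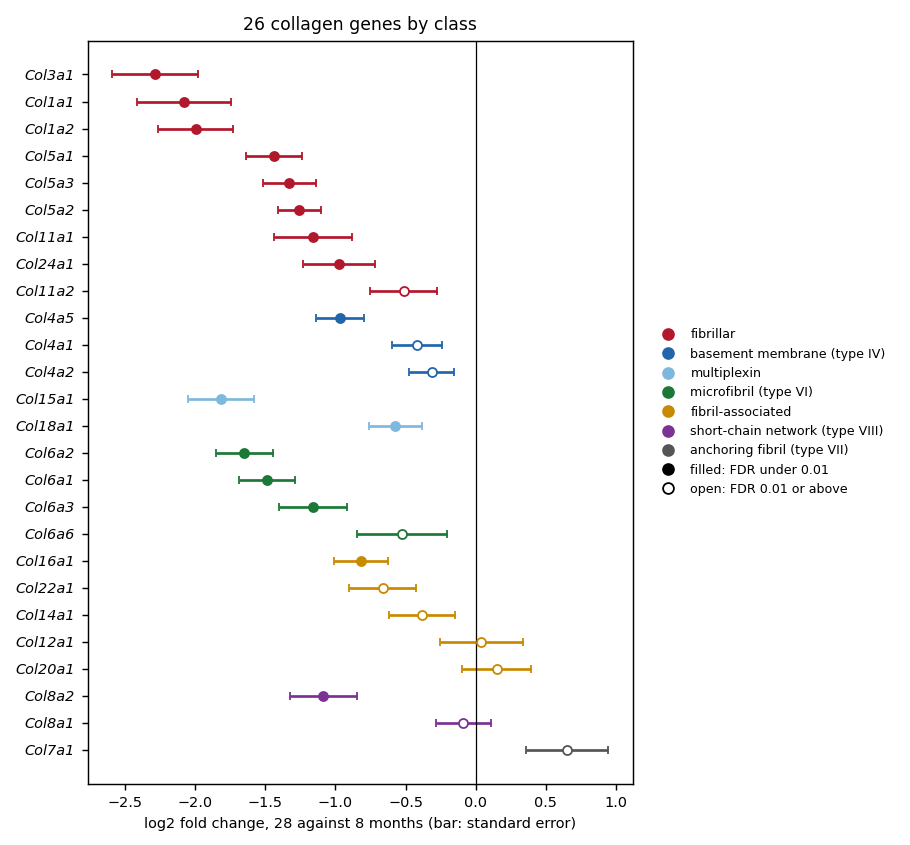
Log2 fold change between 28 and 8 months with its standard error for the 26 collagen genes, coloured by class, with filled points for an FDR under 0.01. The 16 filled points are all below 0 and run from -2.28 (Col3a1) to -0.57 (Col18a1), and Col7a1 is the highest at 0.65 with an open point.

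Type VI collagen forms the beaded microfibrils next to the basement membrane from alpha 1, alpha 2 and alpha 3 chains, and these 3 genes fell. Col6a1 had a lowest, median and highest level of 19.8, 30.1 and 34.1 TPM at 8 months and of 3.49, 9.36 and 17.1 TPM at 28 months. Col6a2 had 17.9, 26.1 and 31.7 TPM at 8 months and 3.56, 7.23 and 14.2 TPM at 28 months. For both genes, no mouse of 28 months reached the level of any mouse of 8 months. Col6a1 fell by 1.49 ± 0.20 (SE) on the log2 scale (2.81-fold, FDR 1.65e-07) and Col6a2 by 1.65 ± 0.21 (3.14-fold, FDR 4.43e-08). Median levels at 18, 22, 24 and 26 months were 25.1, 21.1, 17.4 and 11.8 TPM for Col6a1 and 24.2, 19.5, 15.9 and 8.82 TPM for Col6a2.

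Col6a3, the long chain that gives the microfibril its binding domains, had a lowest, median and highest level of 28.1, 33.4 and 53.3 TPM at 8 months and of 3.81, 11.7 and 25.6 TPM at 28 months. It fell by 1.16 ± 0.24 (SE) on the log2 scale (2.23-fold, FDR 0.000116), with medians of 32.4, 24.4, 23.6 and 19.0 TPM at 18, 22, 24 and 26 months. In CPM, 5 of the 9 mice of 28 months lay below all mice of 8 months. Its TPM is not on the same footing as those of Col6a1 and Col6a2: its counts per TPM match a transcript of 1730 bases, 17.1% of its longest coding transcript, so short transcripts carry much of the value. The same was seen for Col22a1 (7.89%) and Col20a1 (13.3%). Further genes with a low share were Col12a1 (29.1%), Col6a6 (47.5%), Col7a1 (53.4%) and Col3a1 (58.0%), beside 93.2% for Col1a1. Sums, shares and ratios of TPM across genes carry the same limit. Col6a6, an alternative to the alpha 3 chain, had a log2 fold change of -0.53 ± 0.32 (FDR 0.162) from 5 to 60 counts per mouse.

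Col15a1 and Col18a1 encode the multiplexins, collagens of the basement membrane zone that carry sugar chains and release anti-angiogenic fragments. Col15a1 had a lowest, median and highest level of 10.5, 18.6 and 29.4 TPM at 8 months and of 2.22, 4.80 and 10.7 TPM at 28 months. It fell by 1.82 ± 0.23 (SE) on the log2 scale (3.52-fold, FDR 7.59e-08), and the ages overlapped narrowly in TPM and not in CPM. Medians were 15.5, 11.4, 9.75 and 5.33 TPM at 18, 22, 24 and 26 months. Col18a1 had 3.57, 6.40 and 11.4 TPM at 8 months and 2.36, 4.64 and 9.02 TPM at 28 months, with wide overlap, and medians of 6.41, 5.08, 5.22 and 4.47 TPM between. Its log2 fold change of -0.57 ± 0.19 passed by little (FDR 0.00948) and did not pass in 16 of 24 alternative fits.

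Col4a1 and Col4a2, the chains of the common basement membrane, had a lowest, median and highest level of 30.7, 52.7 and 85.9 TPM and of 23.4, 36.6 and 53.6 TPM at 8 months. At 28 months these were 30.04, 32.9 and 86.5 TPM for Col4a1 and 22.2, 26.2 and 52.2 TPM for Col4a2. The TPM ranges of the ages overlapped widely, with mouse 2 at the top of the old range for both genes, while in CPM 6 of the 9 old mice for Col4a1 and 4 for Col4a2 lay below every mouse of 8 months. The log2 fold change was -0.42 ± 0.18 (SE) for Col4a1 (FDR 0.0470) and -0.31 ± 0.16 for Col4a2 (FDR 0.0913), so neither passed, and at 26 months the values were -0.57 ± 0.18 (FDR 0.0131) and -0.47 ± 0.16 (FDR 0.0193). Mouse 2 of 28 months had the highest Col4a1 of all mice of its age and the lowest Col3a1, and without it Col4a1 passed (log2 fold change -0.58, FDR 0.00522).

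Col4a5, a chain of the alternative type IV network, had a lowest, median and highest level of 0.614, 1.72 and 2.33 TPM at 8 months and of 0.599, 0.867 and 1.01 TPM at 28 months. It fell by 0.97 ± 0.17 (SE) on the log2 scale (FDR 1.37e-05), with medians of 1.43, 1.33, 1.14 and 0.868 TPM at 18, 22, 24 and 26 months. In CPM, 2 of the 9 mice of 28 months lay under all mice of 8 months, of which mouse 3 was the lowest. Of its chain partners, Col4a3, Col4a4 and Col4a6 were under the level limit.

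The remaining classes held few changed genes. Col16a1, a fibril-associated collagen at cell contacts, had a lowest, median and highest level of 2.49, 3.45 and 4.69 TPM at 8 months and 0.998, 2.16 and 2.92 TPM at 28 months, and fell by 0.82 ± 0.19 (SE) on the log2 scale (FDR 0.000411). Its medians were 2.83, 2.67, 2.55 and 2.13 TPM at 18, 22, 24 and 26 months. Col8a2, a short-chain collagen known from the corneal endothelium, had 1.03, 1.93 and 3.41 TPM at 8 months and 0.516, 0.937 and 1.42 TPM at 28 months, with medians of 1.64, 1.52, 1.45 and 1.01 TPM between. Col8a2 fell by 1.09 ± 0.24 (FDR 0.000232), whereas its partner Col8a1 had a log2 fold change of -0.09 ± 0.19 (FDR 0.722). For both Col16a1 and Col8a2 the highest old mice lay within the young range.

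The fibril-associated collagens Col14a1, a fibril-spacing protein of mature connective tissue, and Col22a1, found at the junction of muscle and tendon, did not pass, with log2 fold changes of -0.38 ± 0.24 (SE, FDR 0.169) and -0.66 ± 0.24 (FDR 0.0167). Without mouse 3 or without mouse 9 of 28 months, Col22a1 passed (log2 fold change -0.75, FDR 0.00882, and -0.76, FDR 0.00901). Col12a1 and Col20a1, further members of that class, had values of 0.04 ± 0.30 (FDR 0.920) and 0.15 ± 0.24 (FDR 0.626) from 6 to 65 and 4 to 27 counts per mouse. Col7a1, the anchoring fibril of epithelial basement membranes, had the highest log2 fold change of the 26 genes, 0.65 ± 0.29, which did not pass (FDR 0.0546). Its lowest, median and highest levels were 1.23, 3.59 and 7.25 TPM at 8 months and 2.34, 5.18 and 9.79 TPM at 28 months.

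Over the time course, calls began at 24 months and were the most numerous at 28 months. No collagen gene passed between 18 and 8 months, where 0.0318% of all genes were lower and 0.0397% higher, nor between 22 and 8 months, where 0% were lower and 0.0397% higher. At an unadjusted p under 0.05, 0 and 5 of the 26 were lower in these comparisons. The share of all genes at that p was not counted, so the 5 have no baseline. DESeq2 called 0 of the 26 in each comparison. At 24 months Col1a2 (log2 fold change -1.21 ± 0.27 SE, FDR 0.00784), Col3a1, Col5a1 (-0.89 ± 0.20, FDR 0.00849) and Col5a2 (-0.99 ± 0.16, FDR 0.000184) were lower, 4 of 26 against a background of 0.294% lower and 0.318% higher. This count depended on the fit. It was 2 with upper-quartile scaling or with limma on TPM, 6 with DESeq2 and 8 with only the 8- and 24-month mice. The lower calls over all genes moved too, from 37 in the fit reported to 97 with DESeq2 and 87 with those 2 ages. They were 34 with upper-quartile scaling and 39 and 26 with the 2 limma settings. Col15a1 was just outside the threshold (FDR 0.0135).

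At 26 months 15 of the 26 genes were lower than at 8 months and 0 higher, against a background of 8.54% lower and 9.84% higher. These were the genes lower at 28 months except Col24a1. Between 28 and 22 months 11 of 26 were lower and 0 higher, against 11.5% lower and 16.2% higher over all genes. That background split moved with scaling, since upper-quartile factors called 1946 genes lower and 1494 higher, beside 1452 lower and 2033 higher in the fit reported. The collagen count stayed at 11 under both. All comparisons against 8 months share the 8-month mice.

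No neighbouring pair of later ages gave a collagen call. Between 22 and 18 months 0% of all genes were lower and 0.00795% higher, and between 24 and 22, 26 and 24, and 28 and 26 months the background was 0% in each direction. Of the 26 genes, 0, 5, 8 and 0 were lower at an unadjusted p under 0.05 in these 4 steps, and none was higher. The share of all genes at that p was not counted, so these counts have no baseline. DESeq2 called 0 of the 26 in each step. The median log2 fold change of the 26 genes was -0.08, -0.20, -0.40 and -0.13 in the same order. No single step passed the test, while the change from 8 to 28 months passed for 8 of 9 fibrillar and 3 of 4 type VI genes.

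**Figure D3:**
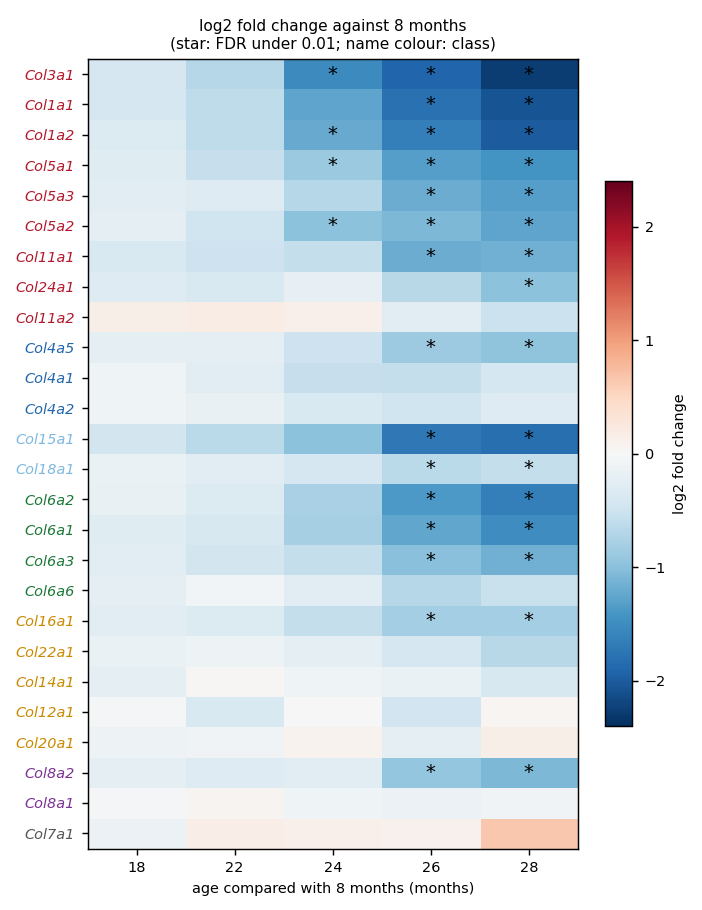
Log2 fold change against 8 months (colour, blue is lower) of the 26 collagen genes at each later age, youngest at the left, with a star at an FDR under 0.01. Rows are ordered by class, from fibrillar at the top through type IV, multiplexin, type VI, fibril-associated and short-chain network to anchoring fibril. Stars number 0, 0, 4, 15 and 16 from left to right.

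The make-up of the collagen RNA also differed between ages. Fibrillar genes held 46.2% to 57.9% of summed collagen TPM at 8 months (median 51.4%) and 12.9% to 43.1% at 28 months (median 31.5%), and the 2 ranges did not overlap. Type IV genes held 14.1% to 22.7% at 8 months (median 17.6%) and 23.0% to 70.1% at 28 months (median 34.7%). Type VI genes held a median of 18.5% at 8 months and 16.9% at 28 months, and the multiplexins 5.10% and 4.79%. Mouse 2 of 28 months had the type IV share of 70.1%, together with the lowest fibrillar share. The ratio of Col3a1 to Col4a1 ran from 1.52 to 3.48 at 8 months (median 2.31) and from 0.0935 to 1.31 at 28 months (median 0.526), with medians of 1.68, 1.73, 1.06 and 0.746 at 18, 22, 24 and 26 months. These shares and this ratio were looked at after the values were known and were not tested.

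**Figure D4:**
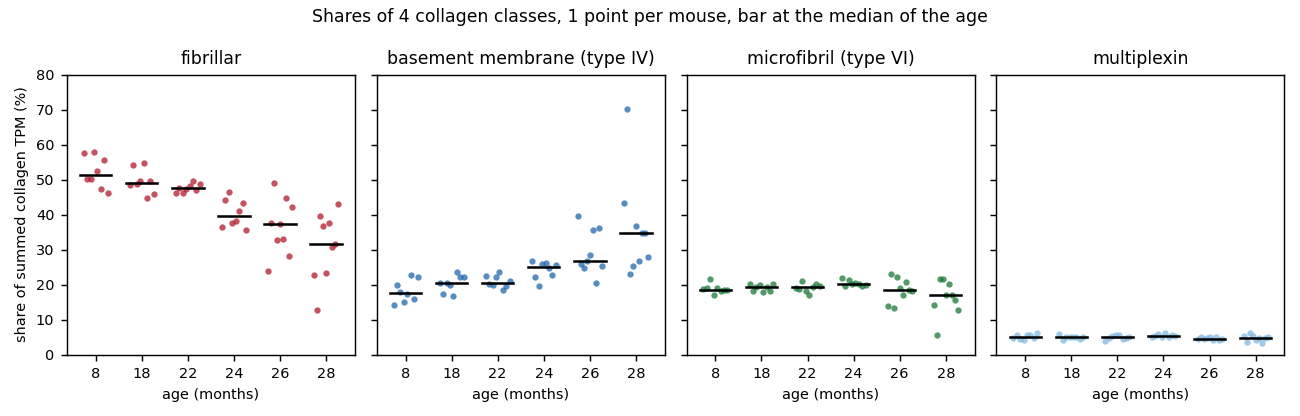
Share of the summed collagen TPM (%) held by fibrillar, type IV, type VI and multiplexin genes in each mouse against age in months, with a bar at the median of the age. The fibrillar median goes from 51.4% at 8 months to 31.5% at 28 months, the type IV median from 17.6% to 34.7%, and the type VI median from 18.5% to 16.9%.

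Ratios between chains were compared within mice, in TPM. The TPM ratio of Col1a1 to Col1a2 had a median of 0.420 at 8 months, 0.422 at 18 months and 0.334 at 28 months, and the difference between 28 and 8 months was -0.21 on the log2 scale (2-sided exact permutation test, p = 0.163, adjusted p = 0.378 over 12 ratios and age pairs). Col3a1 to Col1a1 had medians of 3.58 and 2.72 at 8 and 28 months (difference -0.23 on the log2 scale, exact permutation p = 0.121, adjusted p = 0.362). Col5a1 to Col5a2 had medians of 0.566 and 0.432 (difference -0.30, exact permutation p = 0.189, adjusted p = 0.378). None of the 12 adjusted p values was under 0.05, which does not show that the ratios were equal.

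For type VI, the ratio of Col6a1 to Col6a2 had medians of 1.13 at 8 months, 1.04 at 18 months and 1.30 at 28 months. The log2 difference was -0.13 at 18 months (exact permutation p = 0.0101, adjusted p = 0.121) and 0.16 at 28 months (exact permutation p = 0.0281, adjusted p = 0.169). Col6a3 to Col6a1 had medians of 1.21 and 1.33 at 8 and 28 months (exact permutation p = 0.298, adjusted p = 0.511). For type IV, Col4a1 to Col4a2 had medians of 1.45 and 1.30 (exact permutation p = 0.108, adjusted p = 0.362). Mouse 2 of 28 months decided 2 of these results: without it the adjusted p was 0.0186 for Col6a1 to Col6a2 and 0.0404 for Col4a1 to Col4a2, by the same exact permutation test.

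Of 19 tested genes for hydroxylation, glycosylation and folding, 10 were lower and 2 higher at 28 than at 8 months, beside 18.7% lower and 21.0% higher over all genes, and their median log2 fold change was -0.37. Serpinh1, which encodes the chaperone HSP47, ranged from 38.2 to 104.7 TPM at 8 months (median 57.5 TPM) and from 15.8 to 34.3 TPM at 28 months (median 22.6 TPM), without overlap, and fell by 1.43 ± 0.18 (SE) on the log2 scale (FDR 4.43e-08). Creb3l1, a transcription factor of secretory cells that acts on type I collagen genes, fell by 1.35 ± 0.19 (FDR 4.21e-07), and Colgalt2, a galactosyltransferase of hydroxylysine, by 0.99 ± 0.21 (FDR 9.79e-05). The 2 genes that rose were Mia3, a cargo receptor for large collagens (log2 fold change 0.22, FDR 0.00607), and P4hb, the disulfide isomerase that serves many secreted proteins besides (0.45, FDR 6.97e-05). Both were named after their values were seen. The summed level of this list was not lower at 28 months. It ranged from 633 to 796 TPM at 8 months (median 683 TPM) and from 678 to 870 TPM at 28 months (median 749 TPM). P4hb alone had medians of 226 and 325 TPM. The sum was not tested.

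Of 12 tested genes for propeptide removal and crosslinking, 7 were lower and 1 higher, with a median log2 fold change of -0.66 (all genes, 18.7% lower and 21.0% higher). The gene that rose was Lox, the lysyl oxidase that starts crosslinking. It ranged from 4.89 to 11.3 TPM at 8 months (median 6.30 TPM) and from 7.04 to 45.8 TPM at 28 months (median 19.6 TPM), and rose by 1.46 ± 0.23 (SE) on the log2 scale (FDR 2.27e-06). Loxl2, a related oxidase of basement membranes, fell by 1.14 ± 0.16 (FDR 3.63e-07), and Pcolce, an enhancer of propeptide cleavage, fell by 1.06 ± 0.17 (FDR 4.12e-06). Loxl2 was at 5.53 to 12.3 TPM at 8 months and 2.34 to 6.10 TPM at 28 months.

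Among 11 tested collagen receptor and uptake genes, 2 were lower and 3 higher, with a median log2 fold change of -0.11, which is near the 18.7% lower and 21.0% higher of all genes and is no result about the list. Mrc2, the endocytic collagen receptor of fibroblasts, fell by 0.94 ± 0.19 (SE) on the log2 scale (FDR 5.73e-05). Mrc1, the macrophage mannose receptor, rose by 0.84 ± 0.18 (FDR 0.000161), and Lair1, an inhibitory collagen receptor of leukocytes, rose by 1.49 ± 0.35 (FDR 0.000501). Of 17 tested genes of transforming growth factor beta signalling, a pathway known to drive collagen transcription, 1 was lower (Ltbp4, -0.54 ± 0.17, FDR 0.00622) and 4 were higher, with a median of 0.05, and the share higher is again near that of all genes. The largest rises there were in the receptors Tgfbr1 (0.83 ± 0.12, FDR 3.57e-07) and Tgfbr3 (0.47 ± 0.13, FDR 0.00187), and the others were Tgfbr2 and Smad4.

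**Figure D5:**
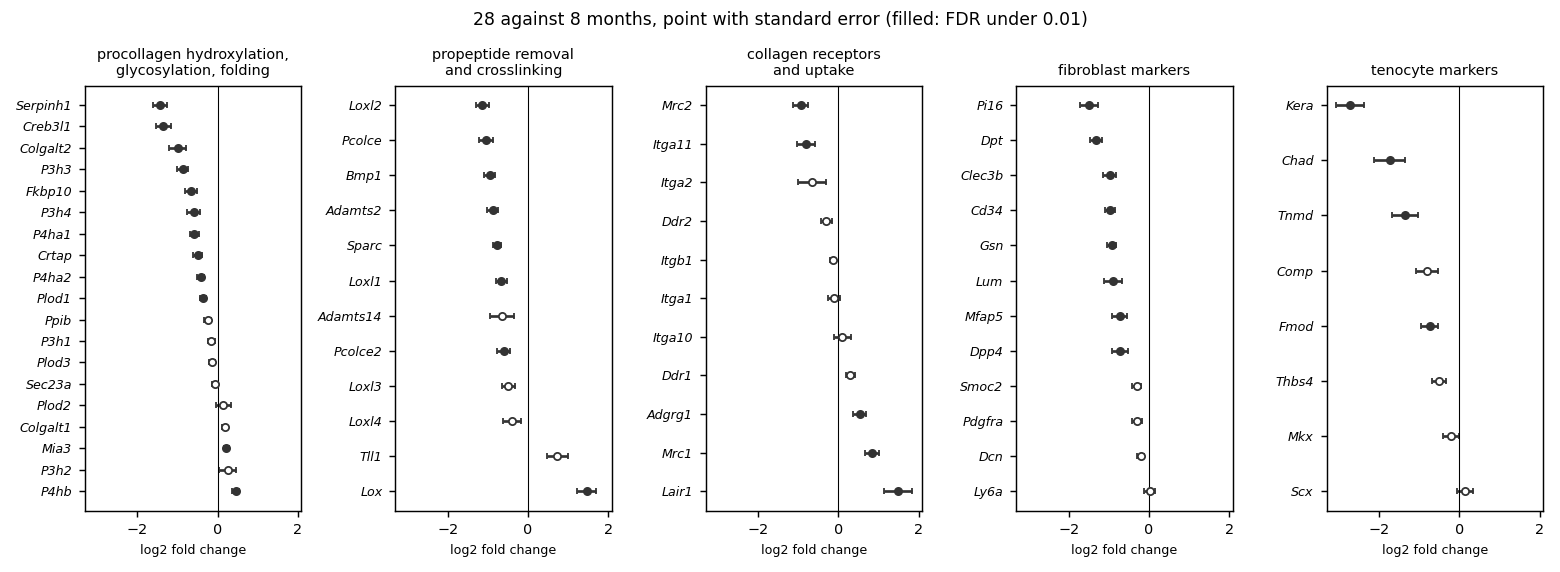
Log2 fold change between 28 and 8 months with its standard error for each tested gene of 3 collagen pathway lists and of the fibroblast and tenocyte marker lists, with filled points for an FDR under 0.01. Most filled points are below 0. Lox at 1.46, Lair1 at 1.49, Mrc1, Adgrg1, P4hb and Mia3 are the filled points above 0.

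Of 12 fibroblast markers, 8 were lower at 28 months and none higher (18.7% and 21.0% over all genes), with a median log2 fold change of -0.81, and their summed level ranged from 2025 to 2872 TPM at 8 months and from 1566 to 2113 TPM at 28 months. Pi16 (-1.49 ± 0.23 SE, FDR 1.21e-06) and Dpt (-1.32 ± 0.15, FDR 1.74e-08), genes of adventitial and interstitial fibroblasts, and Clec3b (-0.98 ± 0.16, FDR 5.84e-06) fell most. The fibroblast receptor Pdgfra had -0.30 ± 0.11 (FDR 0.0258) and the proteoglycan gene Dcn -0.20 ± 0.09 (FDR 0.0467), both named after their values were seen. Of 8 tenocyte markers tested, 4 were lower and none higher, with summed levels of 148 to 379 TPM at 8 months and 89.3 to 275 TPM at 28 months. Kera (-2.72 ± 0.35, FDR 6.89e-08), a proteoglycan of cornea and tendon, Chad (-1.74 ± 0.39, FDR 0.000272) and Tnmd (-1.35 ± 0.32, FDR 0.000457) fell, and the tendon transcription factor gene Scx, also named afterwards, had 0.14 ± 0.21 (FDR 0.594). The part of these cells in the collagen values was not tested.

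Of 8 endothelial markers tested, 0 were lower and 1 (Flt1, 0.59 ± 0.15 SE, FDR 0.00117) was higher, with summed levels of 183 to 288 TPM at 8 months and 208 to 318 TPM at 28 months. Of 8 mural markers, 1 (Acta2, -0.50 ± 0.16, FDR 0.00969) was lower and 1 (Abcc9, 0.43 ± 0.11, FDR 0.00113) higher, with sums of 325 to 574 TPM and 401 to 452 TPM. Of 8 muscle fibre markers, 1 (Pvalb) was lower and 2 (Myh1 and Atp2a1) were higher, with sums of 166307 to 194580 TPM and 135783 to 217320 TPM. These 3 lists had counts of 0 to 2 in each direction, where 18.7% of all genes were lower and 21.0% higher. The fibre sums lay far above those of the other lists in both ages, which is the order the muscle label gives.

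The remaining lists are given beside the same shares over all genes, 18.7% lower and 21.0% higher. Of 10 genes of the fibre response to denervation, 9 were higher and none lower, with sums of 169.8 to 272 TPM at 8 months and 336 to 859 TPM at 28 months. Macrophage markers had 4 higher and 0 lower of 7 (169 to 289.7 and 260.4 to 717 TPM), and satellite cell markers 1 higher and 1 lower of 4 tested (29.998 to 54.4 and 26.4 to 109.2 TPM). Schwann cell markers had none past the threshold of 7 (87.1 to 354 and 102.1 to 283 TPM). Adipocyte markers had 3 lower and 1 higher of 5 (98.4 to 357 and 166 to 436 TPM), with Lep at -3.98 ± 0.64 (SE, FDR 3.24e-06), Plin1 at -1.77 and Adipoq at -1.45. The adipocyte sum was higher at 28 months through Plin4, a lipid droplet protein gene, which rose by 1.24 on the log2 scale, from a median of 94.1 to 300.3 TPM. No marker of these lists was at 0 counts in 25 or more mice. How far each list moves with the collagen genes was not tested.

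Of the 17 genes under the level limit, 8 had enough counts for the test, and 1 in each direction passed at 28 months, where 18.7% of all genes were lower and 21.0% higher. At 28 months Col4a3 was lower (log2 fold change -0.85 ± 0.21 SE, FDR 0.000712) and Col19a1, a fibril-associated collagen of muscle and nerve, was higher (1.29 ± 0.29, FDR 0.000264), and at 26 months Col4a3 and Col4a4 were lower. These were named after their values were seen, and their levels were under 1 TPM in most mice.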

How the data were processed

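Gastrocnemius RNA was measured in 50 male mice of 6 ages (8 or 9 per age), 1 stranded polyadenylated library per mouse. The authors trimmed reads with cutadapt 1.9.1 and assigned them to GRCm38 transcripts with kallisto 0.43.1, as the submitters' processing notes name them, and deposited estimated counts per gene and TPM per gene, the latter summed over transcripts. The deposited estimated counts are whole numbers. Collagen genes were those with the symbol pattern given in the report, and those with 1 TPM or more in 8 or more mice were described.

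Counts were tested with edgeR 4.0.16 (R 4.3.3; TMM factors, quasi-likelihood F test, all 6 ages in 1 fit) over 12586 genes with 1 CPM or more in 8 or more mice, with Benjamini-Hochberg adjustment over all of them and an FDR threshold of 0.01. The SE of an edgeR log2 fold change was taken as its size divided by the square root of the F statistic. Levels are deposited TPM. The CPM ranges compared between ages were scaled with the TMM factors, whereas the low-count limit used CPM by library size alone. Ratios of chains were tested with 2-sided exact permutation tests of log2 ratios (all arrangements enumerated with numpy), adjusted over 12 tests at a threshold of 0.05. The named genes were all described collagen genes, and, from each pathway and marker list, the genes with the largest changes past the threshold. The members and lists were chosen with earlier results of these data known. Alternatives were upper-quartile factors, no filter, a replicate block, 2 ages per fit, DESeq2 1.42.0, limma 3.58.1 on log2(TPM + 1) and log2(TPM + 0.1), and leaving out each mouse of the 2 ages compared. The scripts were tested on simulated data. Transcript lengths behind TPM were estimated from 2112 genes with 1 coding transcript. Promoters are RefSeq sequences, and gene positions are GENCODE positions on the same build. No 2 mice of an age agreed within counting noise (smallest ratio of variance to counting variance 6.37). Python 3.11.15, pandas 2.3.3, numpy 2.4.6 and matplotlib 3.10.9 were used for summaries and plots.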

Additional observations from a re-analysis of the deposited data

Results flagged for a closer look

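In 6 of 96 gene and age groups tested (16 genes), a single mouse stood apart from the others of its age. Chance alone gives about 5% of groups, and the number found is near that share. The groups share mice and are not independent. At 8 months, mouse 3 was low for Col5a2 (7.54 TPM, median of the age 12.7 TPM) and for Col5a1 (3.47 TPM, median 6.96 TPM). At 18 months, mouse 2 was low for Col18a1 (3.62 TPM, median 6.41 TPM) and mouse 8 was high for Col24a1 (1.71 TPM, median 0.902 TPM). At 24 months, mouse 2 was high for Col11a1 (2.45 TPM, median 0.909 TPM) and mouse 8 was low for Col6a3 (9.39 TPM, median 23.6 TPM). Mice 3 of 8 months, 2 of 18 months and 8 of 24 months were also the lowest of their age for many of the 26 collagen genes. The numbers were 23, 21 and 20 genes, and mouse 2 of 24 months was the highest for 22. The same count over all genes was not made.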

How the results depend on the processing

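The count of collagen genes lower at 24 than at 8 months, 4 in the fit reported, was 2 with upper-quartile factors, 8 with only the 2 ages in the fit, and 2 with limma on log2(TPM + 1) and on log2(TPM + 0.1). Over all genes, the lower calls were 37 in the fit reported and 34, 87, 39 and 26 in the same order. The cause was not tested. Counts at 28 against 8 months ranged from 14 to 17 with 1 mouse left out (0 at 18 against 8 months) and from 14 to 16 under the other alternatives, and no single gene reversed. At 28 against 8 months, 175 single-gene values stayed on their side of the threshold and 7 were lost under the alternatives that keep all mice, all in Col18a1 (4) and Col24a1 (3). With 1 mouse left out, 426 stayed, 13 were lost and 3 were gained. At 18 against 8 months no gene had passed, so none could be lost, and none was gained. With a replicate block in edgeR, 4, 15 and 16 collagen genes passed at 24, 26 and 28 against 8 months, 10 passed at 28 against 22 months (11 without it) and 0 elsewhere. The sample labels give no meaning for the replicate numbers. Over 121 pairs of mice with the same number, deviations from the age means correlated from -0.607 to 0.4301 (median 0.0623), and 52 pairs were over 0.1. Pairs with different numbers had a median of -0.00679. Whether the numbers mark a batch was not tested. With 1 mouse left out, the log2 ratio of Col4a1 to Col4a2 at 28 against 8 months ran from -0.13 to -0.0760, and that of Col6a1 to Col6a2 from 0.14 to 0.21. The lowest counts were those of Col20a1 (4 to 27 per mouse), with an SE of 0.24 at 28 against 8 months, and whether depth limits that test was not tested.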

Other observations

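Col17a1, a transmembrane collagen of hemidesmosomes in skin, was under the level limit in 49 of 50 mice. Mouse 1 of 26 months had 4.47 TPM of Col17a1 from 234 counts. That mouse was the lowest of its age for 17 of the 26 collagen genes described. These values were noticed after the data were seen and have no comparison.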
